A study of Mus musculus with 6 samples.

Results

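The 10 negative regulators of T cell receptor (TCR) signalling described here are *Cd5*, *Cd6*, *Ptprc*, *Ptpn6*, *Ptpn22*, *Ubash3a*, *Cbl*, *Cblb*, *Csk* and *Pag1*, chosen by gene symbol from the 23183 symbols listed in each library. All 10 were present. They were measured by mRNA-seq in double positive (DP) thymocytes, the stage of T cell development at which both CD4 and CD8 are on the surface, sorted from C57BL/6 mice at 6 weeks of age. The 3 WT libraries came from mice labelled NSRP1f/f, in which both alleles of *Nsrp1* carry loxP sites, and the 3 NSrp70-cKO libraries from mice labelled NSRP1f/fCD4Cre, which carry the same alleles and a Cre transgene under the control of CD4 regulatory elements, active from the late double negative stage on. WT thus lacks Cre, and no library from mice with Cre and unfloxed alleles was analysed here. Nothing states whether the libraries of a genotype came from separate mice, so the p-values measure the spread between these libraries, which may be technical.

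The TCR is switched on by the Src family kinases Lck and Fyn, which phosphorylate the CD3 and ζ chains so that the kinase ZAP70 can bind and act on the adaptors LAT and SLP-76. The regulators act at each of these steps. CSK phosphorylates an inhibitory tyrosine in the tail of Lck and Fyn and is held at the membrane by the adaptor PAG1, while CD45, the product of *Ptprc*, removes that phosphate. PTPN22 and SHP-1 (*Ptpn6*) dephosphorylate activated kinases, the ubiquitin ligases CBL and CBL-B mark signalling proteins for removal, UBASH3A binds ubiquitinated proteins, and CD5 and CD6 are surface receptors that recruit inhibitory proteins. In DP thymocytes these brakes set how strong a TCR signal must be for positive or negative selection.

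The expression of *Csk* and *Pag1*, the kinase and its membrane anchor, was lower in NSrp70-cKO DP thymocytes, as was that of *Cblb*. *Ptpn6* and *Ptpn22* were higher by a smaller amount. *Cd5*, *Cd6*, *Ptprc*, *Ubash3a* and *Cbl* did not pass the test. Values are FPKM (fragment counts corrected for transcript length and library depth), fold changes are differences in log2(FPKM + 1) between the genotype means, which understate the change of low genes such as *Cblb*, and a gene was called at an adjusted p under 0.05 from limma. Of the 10 members, all of which passed the filter on low values, 3 were called lower and 2 higher, 5 in all, with a median log2 fold change of 0.019. Over the 10326 genes tested, 65.5% were called, 29.8% lower and 35.8% higher, with a median of 0.039. The share of members called was therefore not above that of the genes at large. The members differed from each other in the direction, size and spread of their changes.

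**Figure D1:**
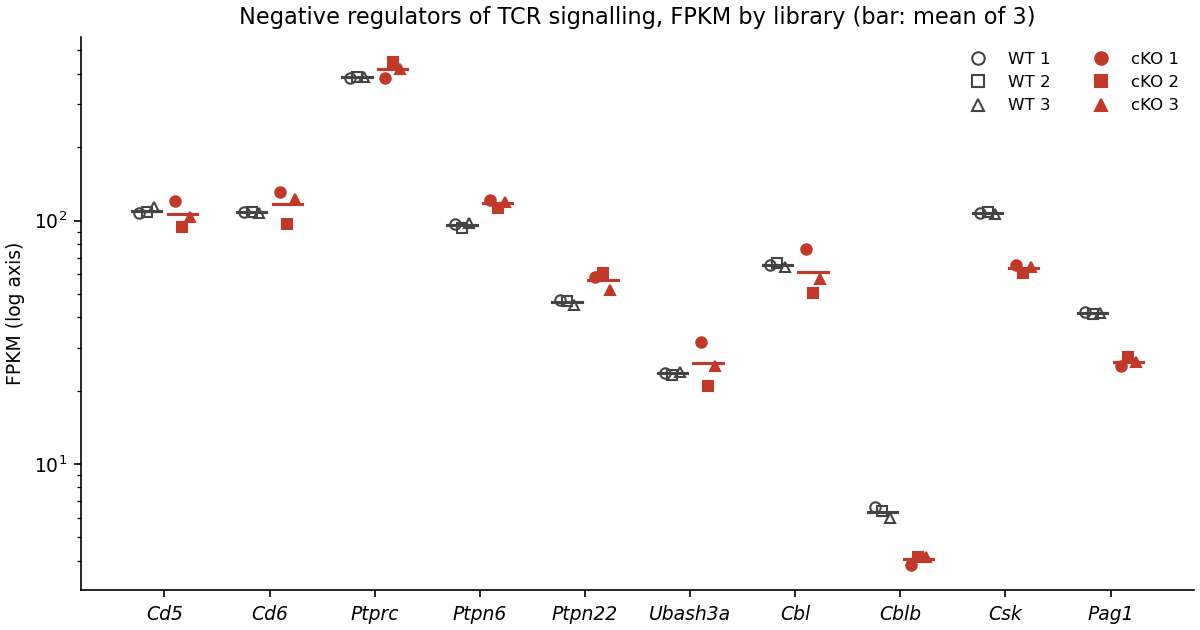
FPKM on a log axis for the 10 members in each library (open symbols WT, filled symbols cKO, with a circle, square or triangle for replicates 1, 2 and 3), with a bar at the mean of 3 libraries. The cKO symbols of *Csk*, *Pag1* and *Cblb* lie below all WT symbols, and those of *Ptpn6* and *Ptpn22* lie above them. Those of *Cd5*, *Cd6*, *Cbl* and *Ubash3a* spread to both sides. For *Ptprc*, cKO 1 lies level with WT and the other cKO symbols lie above.

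Several properties of the libraries bear on these values. The mapped depth, estimated from the steps of 1 fragment at 2608 genes with a single transcript, lay between 20.7 and 20.9 M (mega) fragments in WT and was 13.2, 20.8 and 17.5 M in cKO 1, 2 and 3. With the longest coding transcript of each gene, this depth placed between 326 fragments (*Cblb*) and 45445 fragments (*Ptprc*) behind a member's value in a library. The variance between 2 WT libraries was 1.47 to 1.58 times that of counting noise, against 26.5 to 61.9 times between 2 cKO libraries, and because of this closeness an alternative fit took the WT mean as a single sample. The targeted gene *Nsrp1*, listed under its older symbol *Ccdc55*, had an FPKM of 20.2, 20.7 and 21.1 in WT and of 17.7, 15.8 and 15.0 in cKO. Its log2 fold change was -0.34 (adjusted p = 0.00675 from limma), and 26.7% of the genes tested fell at least as much. Values per gene do not show whether the floxed part was lost. The 4 chromosome Y genes examined were at 0 in all WT libraries and summed to between 72.3 and 99.9 in cKO, so the sex of the mice and the genotype cannot be told apart. All 10 DP markers were present, with 7 called higher and 3 lower, and all 10 genes of cycling cells were called higher, their summed FPKM lying between 1118 and 1127 in WT and between 2318 and 2629 in cKO. Of 12 markers of mature single-positive T cells, 9 were called lower and 2 higher, with sums of 463.9 to 467.8 in WT and of 438.7 to 498.2 in cKO. Of 8 double negative markers, 6 could be tested and 4 were called lower. Markers of B cells, myeloid and dendritic cells, thymic epithelium and stroma and of NK and γδ T cells were mostly near 0, with 5 of 6, 5 of 8, 6 of 7 and 4 of 5 listed genes under an FPKM of 1 in every library (the fifth NK and γδ gene, *Trdc*, was not analysed here), with *Foxn1* and *Krt5* of the epithelium at 0 throughout, while the erythroid markers summed to between 1.97 and 2.72 in WT and between 12.3 and 26.6 in cKO. Of the B cell markers, *Cd79b* was above that level and called higher (mean FPKM of 22.4 in WT and 33.0 in cKO). Of the myeloid and dendritic markers, *Cd74* was called lower (10.5 and 5.68). *Lyz2*, *Itgam* and *Epcam* were tested and not called. The part of cell composition, cell cycle and sex in the results below was not tested, and in sorted bulk samples fewer cells of a type and less RNA per cell cannot be told apart.

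*Csk*, which encodes the kinase that restrains Lck and Fyn, lies on chromosome 9 of GRCm38 (the assembly of mm10) from 57626646 to 57653631 on the minus strand. Its FPKM was 108, 108 and 106 in WT 1, 2 and 3 and 65.7, 60.6 and 64.3 in cKO 1, 2 and 3. All 3 cKO values lay far below the WT values, and the libraries of each genotype lay close together. The means were 108 ± 0.972 in WT and 63.6 ± 2.63 in cKO (SD, n = 3 each), a log2 fold change of -0.75 (standard error 0.065, 95% interval -0.90 to -0.60, adjusted p = 0.000185 from limma). A decrease at least this large was found in 9.77% of the genes tested. *Csk* was called lower in all 16 alternative settings, with a log2 fold change between -1.31, with FPKM totals made equal, and -0.22 (adjusted p = 0.0283 from limma), after values were adjusted for transcript length and GC content. *Csk* had the highest GC content of the members, 60.1%, and across 10245 genes the fold change fell with GC content and with length (Spearman's rho of -0.33 and -0.30, a description across genes, which are not replicates).

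*Pag1*, which encodes the transmembrane adaptor that recruits CSK to the membrane, lies on chromosome 3 from 9687479 to 9833679 on the minus strand. Its FPKM was 41.9, 41.3 and 41.7 in WT and 25.3, 27.5 and 26.1 in cKO, again without overlap. The log2 fold change was -0.64 (standard error 0.059, 95% interval -0.78 to -0.51, adjusted p = 0.000218 from limma). It was called lower in all 16 alternatives, between -1.19 and -0.43, the latter after adjustment for length and GC content, where its estimate of the change was larger in size than that of *Csk*. With the WT mean taken as a single sample, *Pag1* and *Csk* were the only members called (adjusted p = 0.0449 and 0.0407 from limma), 2 of 10 where 15.9% of all genes were called.

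The promoters of the members with the largest decrease and the largest increase, *Csk* and *Ptpn22*, are shown because the deposited values sum over all transcripts of a gene and the 2 starts of *Csk* differ in their sequence. The RefSeq table of GRCm38.p6 held windows for 8 members, not for *Cd6* and *Pag1*. The windows printed are the 250 bases before both *Csk* starts and the first *Ptpn22* start. They overlap no GENCODE exon and are read 5′ to 3′ on the strand of the gene. Capitals mark CANNTG, the E-box that E proteins and other helix-loop-helix factors can bind, and AGGAAG, which holds the core motif of Ets factors. Both were searched on both strands, so that AGGAAG on the opposite strand reads CTTCCT here, and no marked matches of the 2 motifs overlap.
Csk, distal start, chr9:57653632-57653881, minus strand: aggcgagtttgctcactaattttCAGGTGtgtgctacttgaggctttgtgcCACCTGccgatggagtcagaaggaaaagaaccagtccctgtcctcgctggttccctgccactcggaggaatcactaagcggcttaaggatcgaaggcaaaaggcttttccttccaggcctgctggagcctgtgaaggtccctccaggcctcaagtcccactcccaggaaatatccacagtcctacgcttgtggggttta
Csk, proximal start, chr9:57645654-57645903, minus strand: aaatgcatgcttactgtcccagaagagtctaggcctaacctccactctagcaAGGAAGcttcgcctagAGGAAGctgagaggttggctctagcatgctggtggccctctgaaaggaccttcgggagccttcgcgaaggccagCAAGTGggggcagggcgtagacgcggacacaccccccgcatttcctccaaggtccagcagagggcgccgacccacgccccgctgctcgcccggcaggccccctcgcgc
Ptpn22, chr3:103859545-103859794, plus strand: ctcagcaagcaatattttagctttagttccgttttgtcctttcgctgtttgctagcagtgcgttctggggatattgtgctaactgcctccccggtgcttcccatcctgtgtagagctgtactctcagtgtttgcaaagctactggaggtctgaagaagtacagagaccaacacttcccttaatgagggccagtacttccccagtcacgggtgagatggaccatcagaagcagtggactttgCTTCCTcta

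The distal window of *Csk* held 2 E-boxes, no AGGAAG and 7 CpG dinucleotides at a GC content of 54.0%. Its proximal window held 1 E-box, 2 AGGAAG and 16 CpG at 64.0% GC. The *Ptpn22* window held 1 AGGAAG, no E-box and 5 CpG at 49.2% GC. A second *Ptpn22* start has its window further along the gene, at chr3:103860027-103860276, which is not printed and held 1 AGGAAG, 1 E-box and 2 CpG at 46.0% GC. Over 32851 windows of the same length, 66.2% held CANNTG and 29.5% held AGGAAG, and the medians were 6 CpG and 52.4% GC, so both motifs are common. None of these 4 windows held the GC box GGGCGG (32.7% of all windows) or TATAAA (12.4%) on either strand. These matches are a description of letters. Which start the thymocytes used cannot be read from values per gene.

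Among the 3 phosphatases, *Ptpn6* and *Ptpn22* rose in NSrp70-cKO at the scaling used, and *Ptprc* did not pass the test. *Ptpn6*, which encodes SHP-1, lies on chromosome 6 from 124720707 to 124738714 on the minus strand and shares 195 exonic bases with an antisense gene, *Gm20531*, so with the strand setting not stated a small part of its reads is uncertain. Its FPKM was 96.5, 93.6 and 97.7 in WT and 121, 112 and 119 in cKO. The lowest cKO value was above the highest WT value, with a log2 fold change of 0.29 (standard error 0.067, 95% interval 0.13 to 0.45, adjusted p = 0.00761 from limma). *Ptpn22*, on chromosome 3 from 103859795 to 103912247 on the plus strand, encodes a phosphatase that acts on the activating tyrosine of Lck and binds CSK. It had an FPKM of 46.9, 46.6 and 44.9 in WT and of 58.3, 61.1 and 51.9 in cKO, again without overlap. Its log2 fold change was 0.30 (standard error 0.076, 95% interval 0.12 to 0.48, adjusted p = 0.0110 from limma). An increase of this size was common, being reached by 34.1% of all genes for *Ptpn6* and 33.5% for *Ptpn22*. Both calls ended with the WT mean taken as a single sample (adjusted p = 0.270 and 0.247 from limma), and with equal FPKM totals, which moved the median of all genes from 0.039 to -0.45, both changes turned negative (-0.27, then called lower at an adjusted p of 0.0141 from limma, and -0.25, not called). Neither was called under quantile normalization (-0.070 and 0.11, adjusted p = 0.282 and 0.263 from limma). The *Ptpn22* call also ended after adjustment for length and GC content (0.11, adjusted p = 0.233 from limma) and without WT 3 (0.28, adjusted p = 0.0533 from limma).

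*Ptprc*, on chromosome 1 from 138062861 to 138175708 on the minus strand, encodes CD45, a receptor phosphatase that both activates and restrains Src family kinases. It was the member with the highest level, with an FPKM of 386, 389 and 390 in WT and of 386, 449 and 421 in cKO. The cKO value of replicate 1 was as low as the WT values and the other two were above them. The log2 fold change was 0.10 (95% interval -0.10 to 0.31, adjusted p = 0.320 from limma). It turned to -0.46 with equal FPKM totals and to -0.47 under quantile normalization, with an adjusted p of 0.00778 and 0.00640 from limma. CD45 occurs in isoforms that differ by the inclusion of its variable exons, which values per gene do not show.

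The ubiquitin ligases differed from each other. *Cblb*, on chromosome 16 from 52031225 to 52208048 on the plus strand, encodes CBL-B, a ligase known for setting the threshold of T cell activation. Its FPKM was 6.66, 6.40 and 5.98 in WT and 3.84, 4.14 and 4.16 in cKO, with no overlap. The log2 fold change was -0.54 (standard error 0.073, 95% interval -0.72 to -0.37, adjusted p = 0.000795 from limma). *Cblb* was the member with the lowest level and the fewest fragments. It was called lower in 15 of 16 alternatives, the exception being the WT mean as a single sample (adjusted p = 0.0666 from limma).

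*Cbl*, on chromosome 9 from 44142976 to 44234049 on the minus strand, encodes the ligase c-CBL, which in thymocytes limits the amount of TCR at the surface. It had an FPKM of 65.7, 67.1 and 64.7 in WT and of 76.6, 50.2 and 57.7 in cKO. The value of cKO 1 lay above the WT values and those of cKO 2 and 3 below them, and the log2 fold change of -0.12 had a wide interval, from -0.47 to 0.23 (adjusted p = 0.498 from limma). Without cKO 1, *Cbl* was called lower (-0.28, adjusted p = 0.0224 from limma), and without cKO 2 its change was 0.022. *Ubash3a*, on chromosome 17 from 31207873 to 31246892 on the plus strand, had a like spread, with an FPKM of 23.7, 23.2 and 23.9 in WT and of 31.7, 20.9 and 25.2 in cKO. Its highest and lowest values were again those of cKO 1 and cKO 2, with a log2 fold change of 0.11 (95% interval -0.22 to 0.44, adjusted p = 0.515 from limma). Without cKO 2, *Ubash3a* was called higher, at 0.26 (adjusted p = 0.0495 from limma).

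The surface receptors *Cd5* and *Cd6* are neighbours on chromosome 19, with 50338 bases and no other protein-coding gene between them. *Cd5* lies from 10717116 to 10739002 and *Cd6* from 10789341 to 10830058, both on the minus strand. The level of CD5 at the cell surface is known to follow the strength of the TCR signal in thymocytes. *Cd5* had an FPKM of 108, 108 and 113 in WT and of 120, 94.3 and 103 in cKO, and the WT values lay within the range of the cKO values. Its log2 fold change was -0.058 (95% interval -0.30 to 0.18, adjusted p = 0.637 from limma). *Cd6* had an FPKM of 108, 109 and 108 in WT and of 131, 97.0 and 123 in cKO, a log2 fold change of 0.096 (95% interval -0.18 to 0.37, adjusted p = 0.498 from limma). Both were called lower with equal FPKM totals (-0.61 and -0.46) and quantile normalization (-0.40 and -0.26), and both were called higher after adjustment for length and GC content (0.36 and 0.56, adjusted p = 0.0154 and 0.00658 from limma). Without cKO 2, *Cd6* was called higher at 0.23 (adjusted p = 0.00425 from limma).

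**Figure D2:**
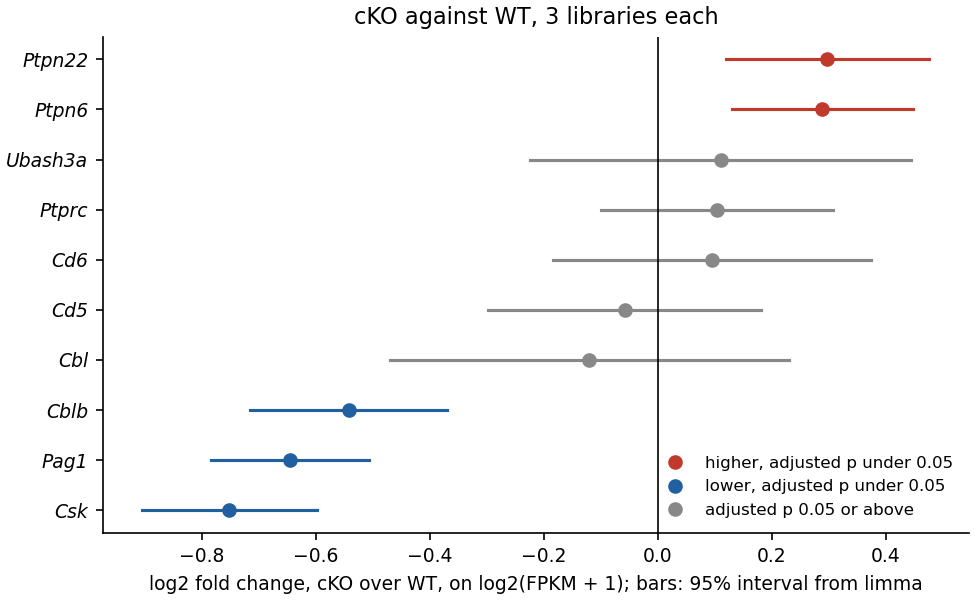
Log2 fold change of cKO over WT for the 10 members (points, x axis, on the log2(FPKM + 1) scale) with the 95% interval from limma (bars), ordered by size and coloured by call. *Csk*, *Pag1* and *Cblb* lie between -0.75 and -0.54 with intervals below 0, and *Ptpn6* and *Ptpn22* lie at 0.29 and 0.30 with intervals above 0.

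The members differed in how far the cKO libraries lay apart. In WT the coefficient of variation was between 0.408% (*Cd6*) and 5.39% (*Cblb*). In cKO it was 22.1% for *Cbl*, 21.0% for *Ubash3a*, 15.1% for *Cd6* and 12.5% for *Cd5*, against 4.48% for *Cblb*, 4.14% for *Csk*, 4.13% for *Pag1* and 3.99% for *Ptpn6*. Of the cKO libraries, cKO 1 was the highest for 6 members and the lowest for 3, and cKO 2 was the lowest for 6 and the highest for 3. The cKO and WT values did not overlap for 5 of the 10 members, against 72.5% of all genes. Leaving out cKO 2 raised the number of members called higher from 2 to 4, with 40.0% of all genes called higher. It left 3 members called lower, with 3522 of the 10326 genes called lower.

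The count of members in each direction depended on the scaling, and the FPKM totals were larger in cKO (701396 to 850548) than in WT (521296 to 531517). With the FPKM totals made equal, 9 members were called lower and 0 higher, where 59.9% of all genes were called lower, and under quantile normalization 6 were called lower and 0 higher, against 29.4% of all genes. *Csk*, *Pag1* and *Cblb* were among the members called lower in both.

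**Figure D3:**
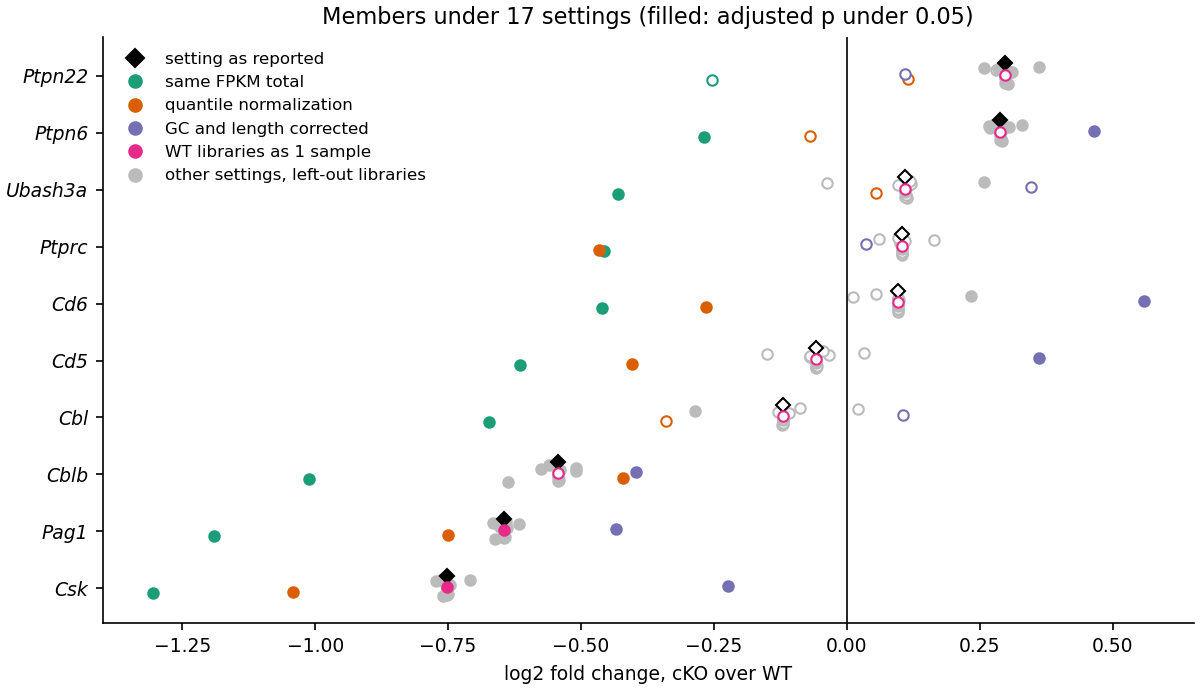
Log2 fold change of each member (x axis) in the setting reported (diamonds) and in 16 alternatives (circles), filled where the adjusted p was under 0.05. *Csk*, *Pag1* and *Cblb* stay below 0 in every setting, whereas the other 7 members have settings on both sides of 0.

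In order of level, *Ptprc* stood first in both genotypes (means of 388 and 418), well above the next member, and *Cblb* last (6.35 and 4.04). In WT, *Cd5* (110), *Cd6* (108) and *Csk* (108) followed *Ptprc* at levels whose ranges overlapped from one to the next, and then *Ptpn6* (95.9), *Cbl* (65.9), *Ptpn22* (46.1), *Pag1* (41.7) and *Ubash3a* (23.6) with separate ranges. In cKO, *Csk* moved from this leading group to a level of 63.6, where its range overlapped that of *Cbl*, and *Pag1* (26.3) came to overlap *Ubash3a* (25.9).

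The balance between opposing regulators was also compared within each library, since a ratio of FPKM values in 1 library does not depend on a scaling factor. Taken singly, 72.5% of all genes had cKO and WT values that did not overlap. The share among other pairs of genes was not tested. Of 7 ratios, the cKO and WT values were separate for 5. With 3 libraries per genotype the exact two-sided permutation test cannot give a p below 0.1, which these 5 reached (0.14 adjusted over the 7), so none could pass 0.05. The ratio of *Ptprc* to *Csk*, the phosphatase and the kinase of the same inhibitory tyrosine, was 3.58, 3.59 and 3.66 in WT and 5.87, 7.40 and 6.54 in cKO, 1.82 times higher on average. *Csk* to *Lck*, the kinase to its substrate, was 0.106, 0.107 and 0.105 in WT and 0.0498, 0.0545 and 0.0516 in cKO, 0.490 times the WT ratio, with *Lck* itself at 1015 ± 3.49 and 1227 ± 106 FPKM (SD, n = 3 each). *Ptpn22* to its partner *Csk* was between 0.422 and 0.435 in WT and between 0.807 and 1.01 in cKO, with no overlap. Adjustment for length and GC content reduced these 3 differences from 0.86, -1.03 and 1.06 on the log2 scale to 0.26, -0.59 and 0.33, and quantile normalization reduced those of *Ptprc* to *Csk* and *Csk* to *Lck* to 0.58 and -0.52.

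The ratio of *Pag1* to *Csk* was 0.388, 0.382 and 0.392 in WT and 0.386, 0.453 and 0.406 in cKO, overlapping between the genotypes (exact permutation test, p = 0.3), with the anchor and the kinase lower by a like amount before adjustment for length and GC content. *Ptpn6* to *Ptpn22* overlapped as well, with means of 2.08 and 2.07 (exact permutation test, p = 1). The ratio of *Cbl* to *Cblb* was 9.86, 10.5 and 10.8 in WT and 20.0, 12.1 and 13.9 in cKO, with the largest value in cKO 1. Its log2 difference of 0.53 became 0.32 without cKO 1 and 0.081 under quantile normalization. The *Cd5* to *Cd6* ratio was between 0.994 and 1.05 in WT and between 0.843 and 0.973 in cKO, a small difference without overlap.

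**Figure D4:**
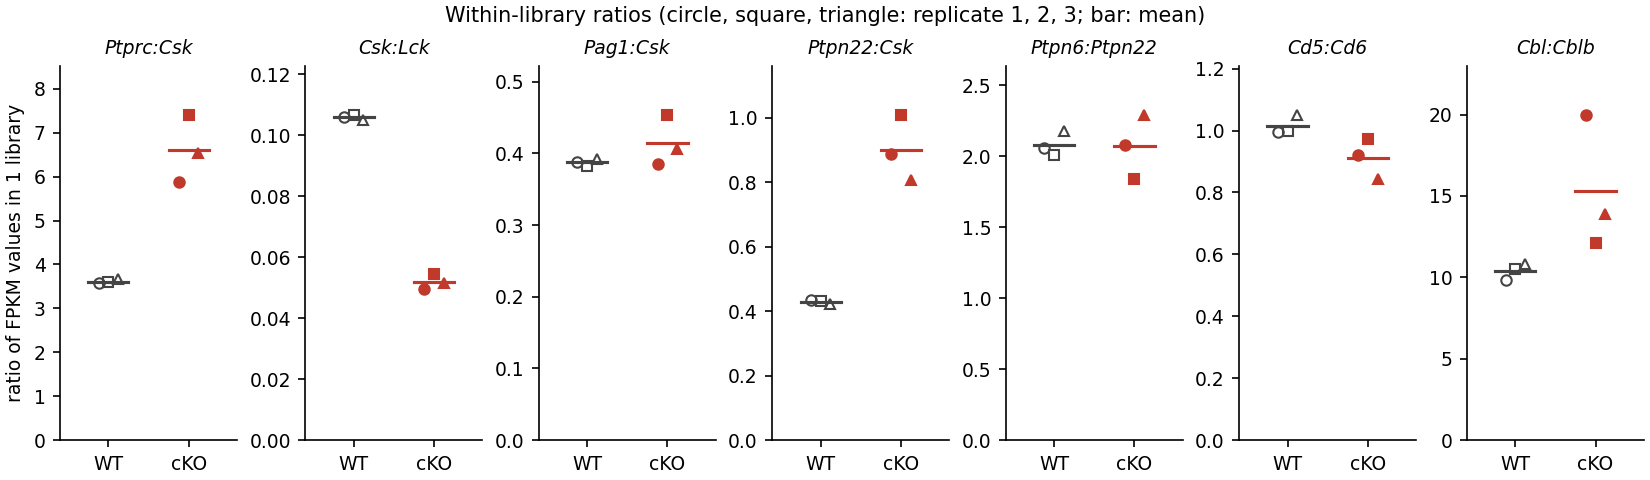
Ratio of the FPKM values of 2 genes within each library (y axes from 0, 1 panel per ratio; open symbols WT, filled symbols cKO, bars at the mean). The cKO ratios of *Ptprc* to *Csk* (5.87 to 7.40) lie above those of WT (3.58 to 3.66), and the cKO ratios of *Csk* to *Lck* (0.0498 to 0.0545) lie below those of WT (0.105 to 0.107).

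A further list of genes that tune the pathway, called further negative regulators here, moved in both directions. That name is the name of the list. How each of its genes acts in DP thymocytes was not tested, and *Themis* was also among the DP markers. Of 32 further genes, 29 could be tested and 13 were called lower and 8 higher, with a median log2 fold change of -0.13, beside 29.8% lower and 35.8% higher and a median of 0.039 over all genes. The 5 lower genes with the largest change were *Dgkz*, a kinase that consumes the second messenger diacylglycerol (FPKM of 200 in WT and 80.8 ± 16.5 in cKO, log2 fold change -1.32), *Lime1*, a transmembrane adaptor that like *Pag1* binds CSK (-0.99), *Rasal3*, a Ras GTPase activating protein (-0.84), *Laptm5*, a lysosomal protein that lowers the amount of TCR (-0.78), and *Map4k1*, the kinase HPK1 that acts on SLP-76 (-0.67). *Lime1* had an FPKM of 30.1, 29.6 and 30.3 in WT and of 11.6, 22.1 and 12.2 in cKO, with cKO 2 nearest to WT. The 5 higher genes with the largest change were *Sit1*, an inhibitory transmembrane adaptor (0.77), *Sh3kbp1*, an adaptor that binds the CBL proteins (0.63), *Nedd4*, a ubiquitin ligase (0.53), *Themis*, which binds SHP-1 in thymocytes (0.53), and *Sla*, the adaptor SLAP that brings c-CBL to the TCR (0.46). These 10 genes had an adjusted p between 0.000291 and 0.00847 from limma. With equal FPKM totals, 20 were called lower and 0 higher (59.9% of all genes lower), under quantile normalization 14 and 3 (29.4% of all genes lower), and with the WT mean as a single sample 3 and 0 (15.9% of all genes called). *Ubash3b*, the paralogue of *Ubash3a*, stayed under the filter, with an FPKM of 0.796, 0.789 and 0.881 in WT and of 0.247, 0.345 and 0.448 in cKO, as did *Cish* and *Rnf128*.

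Among 17 genes on whose products the members act, 5 were called higher and 3 lower, with a median of -0.056, a smaller share than the 65.5% called over all genes, whose median was 0.039. Of the kinases under the control of CSK and CD45, *Fyn* had an FPKM of 51.0, 51.2 and 49.9 in WT and of 22.8, 25.8 and 24.7 in cKO, and *Lck* had 1019, 1015 and 1012 in WT and 1321, 1112 and 1248 in cKO. The fall of *Fyn* was called (log2 fold change -1.03, adjusted p = 0.000101 from limma) and the difference of *Lck* was not (0.27, adjusted p = 0.0715), although its groups did not overlap. *Plcg1*, the phospholipase that makes diacylglycerol (-1.04), and *Pik3r1*, the regulatory subunit of PI3-kinase (-0.73), were also lower. The higher genes were *Cd3d* (0.78), *Lcp2*, which encodes SLP-76 (0.61), *Cd247*, the ζ chain that c-CBL ubiquitinates (0.50), *Cd3g* (0.49) and *Crk*, an adaptor that binds CBL (0.19). The counts depended on the scaling, with 0 called higher and 13 lower with equal FPKM totals (59.9% of all genes lower) and 1 and 11 under quantile normalization (29.4% lower), and 0 and 2 were called with the WT mean as a single sample (15.9% of all genes called).

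**Figure D5:**
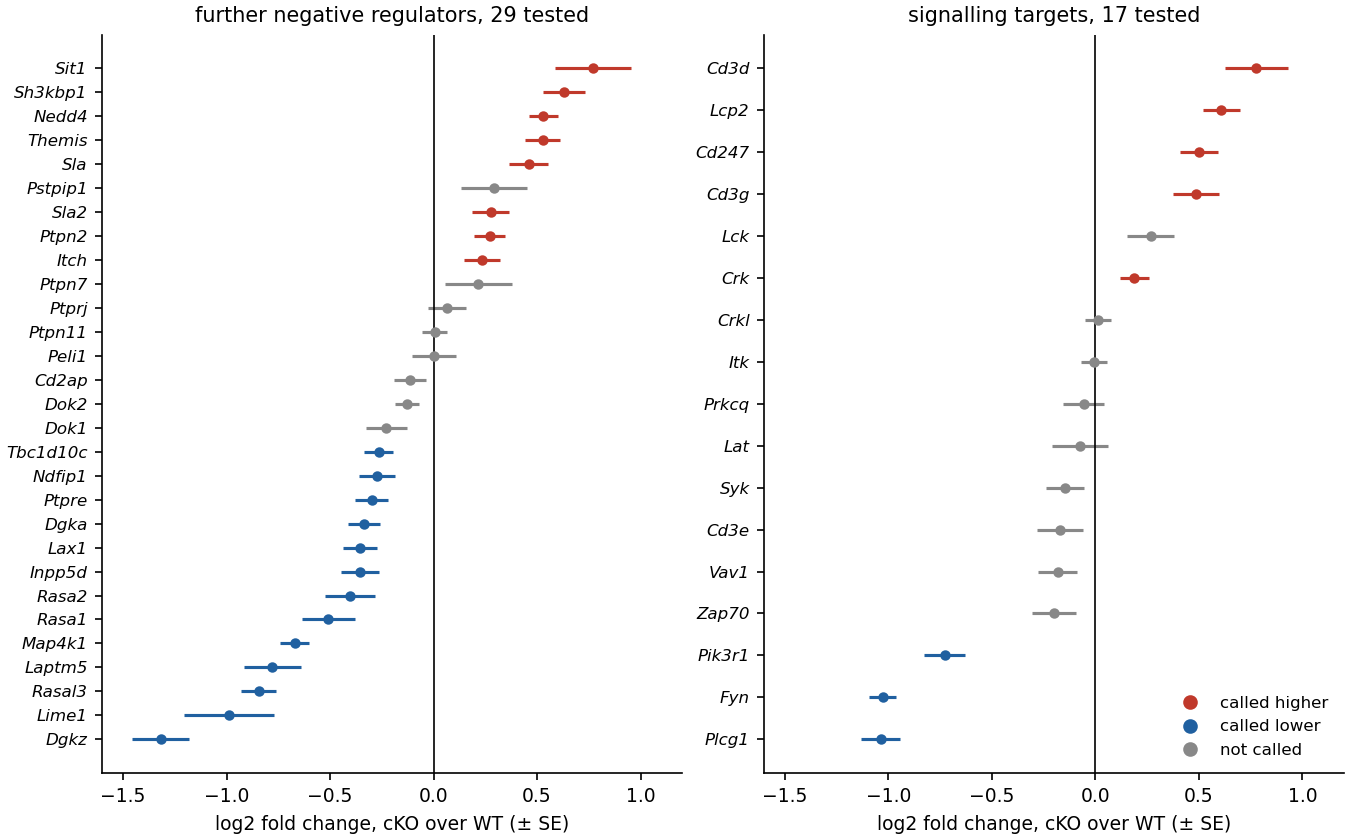
Log2 fold change of cKO over WT with its standard error (x axis) for the 29 tested further negative regulators (left) and the 17 signalling targets (right), ordered by size and coloured by call. *Dgkz* is lowest on the left at -1.32 and *Sit1* highest at 0.77, and *Plcg1* and *Fyn* are lowest on the right at -1.04 and -1.03.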

How the data were processed

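RNA of sorted DP thymocytes was sequenced from 3 WT and 3 NSrp70-cKO libraries, grouped by their titles. Libraries were strand-specific and paired-end, from poly(A)-enriched RNA. The deposited FPKM values, 1 per gene symbol, were derived by the authors with Cufflinks after trimming (fastx trimmer) and mapping to mm10 (TopHat). Tool versions, annotation and strand setting are not given in the sources used here. The study's count-based test was not repeated, since FPKM values are not counts.

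Symbols were matched to GENCODE M21 (GRCm38) for positions, GC content and the length of the longest coding transcript (22110 directly and 663 through RefSeq synonyms). Libraries were divided by median-of-ratios size factors, and genes that reached an FPKM of 1 in 3 libraries or more (10326) were kept. Their log2(FPKM + 1) was fitted by genotype across all genes with limma 3.58.1 in R 4.3.3 (eBayes with a trend, Benjamini-Hochberg adjustment over all genes tested). The fit was tested on simulated data in which both genotypes had the same spread. It was not tested under the larger spread seen between cKO libraries. Ratios within libraries were compared by exact two-sided permutation tests (scipy 1.17.1). Depth was estimated with an assumed fragment length of 200 nucleotides and covers counting error only. Alternatives were a pseudocount of 0.1, no filter, no scaling, equal FPKM totals, quantile normalization, a replicate block, no trend, a variance weight per genotype, the WT mean as a single sample, adjustment for length and GC content (splines with 5 degrees of freedom), and each library left out. All members were named, and from each further list the 5 called genes with the largest change in each direction. *Lck* and *Fyn* were always named. *Ubash3b*, *Cish* and *Rnf128* were named after their values were seen. The members and lists were chosen with earlier results of these data known.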

Additional observations from a re-analysis of the deposited data

How the results depend on the processing

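The log2 fold changes and calls were recomputed under 16 alternatives to the limma fit. The ratios were recomputed on log2(FPKM + 1), with quantile normalization and with adjustment for length and GC content. They were also recomputed with a replicate block, with the WT mean as a single sample and with each library left out. Levels, marker sums and promoter counts were not recomputed. Of the 16, no filter, a replicate block, no trend and a variance weight left the fold change of every member unchanged. They could change only its call. No scaling changed little, since the size factors lay between 1.00 and 1.01. *Csk* and *Pag1* kept their direction and call in all 16, *Cblb* in 15, *Ptpn6* in 13 and *Ptpn22* in 11. With equal FPKM totals, log2 fold changes reversed for *Cd6* (-0.46), *Ptprc* (-0.46), *Ptpn6* (-0.27), *Ptpn22* (-0.25) and *Ubash3a* (-0.43), calls were 0 higher and 9 lower for members, 0 and 20 for further negative regulators and 0 and 13 for signalling targets. Under quantile normalization *Cd6* (-0.26), *Ptprc* (-0.47) and *Ptpn6* (-0.070) reversed, with 0 members called higher and 6 lower, 3 further regulators higher, and 1 target higher and 11 lower. Adjustment for length and GC content reversed *Cd5* (0.36), *Cbl* (0.11) and the log2 differences of *Pag1* to *Csk* (-0.21) and *Ptpn6* to *Ptpn22* (0.36), and ended the call of *Ptpn22* (adjusted p = 0.233 from limma). With the WT mean as a single sample, 1641 genes were called in place of 6766, 0 members, 0 further regulators and 0 targets were higher, and 3 further regulators were lower. The cause of these shifts was not tested.

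When 1 library at a time was left out, between 1 and 4 members and between 5 and 10 further regulators were called higher. Of all 10326 genes, between 5589 and 7654 were called, and between 3083 and 4132 were called higher. The log2 difference of *Ptpn6* to *Ptpn22* ranged from -0.088 to 0.070. Changes ranged from -0.15 without cKO 1 to 0.032 without cKO 2 for *Cd5*, from -0.28 to 0.022 for *Cbl* and from -0.037 to 0.26 for *Ubash3a*, so each reversed once, and *Cbl* was called without cKO 1 and *Ubash3a* without cKO 2. The call of *Ptpn22* ended without WT 3 (adjusted p = 0.0533 from limma), which left 1 member called higher.

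Same-numbered WT and cKO libraries did not deviate together (correlations of -0.022, 0.039 and 0.031), and 2 of 6 libraries correlated best with their own number. The variance between WT libraries was only 1.47 to 1.58 times that of counting noise. Little was therefore left to correlate, and the check cannot tell whether same-numbered libraries were paired. The fit with the replicate block called 6467 genes, 2 members higher and 3 lower. FPKM values hold no isoforms, and depth limits *Cblb* most.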
